A study of Homo sapiens with 12 samples.

Results

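The comparison described here is that of pre-miR-371 cells against GFP vector cells while both were treated with erlotinib, an inhibitor of the EGFR kinase. Its members are all genes that could be read from the arrays, 19775 of 19775, in 6 of the 12 arrays of the series. A gene was taken where a probe set carried a single gene symbol, and where several probe sets carried it, the one with the highest mean over the 12 arrays was used. The cells were PC9 (PC-9), an established line of human lung adenocarcinoma cells whose growth is driven by mutant EGFR. One group carried the GFP vector and was given 2 μM erlotinib for 24 h, and the other expressed the miR371 precursor and was given the same drug for the same time, with 3 arrays each. The other 6 arrays held the same 2 lines after 24 h in DMSO, the solvent of the drug, and serve below as the background measured in the same way. The lines were made with lentiviral vectors and kept as stable lines, the control vector holding a scrambled hairpin, and there was 1 line of each kind. A difference between pre-miR-371 and GFP vector cells and a difference between these particular lines cannot be told apart. The sample labels do not say whether the 3 arrays of a group came from separate cultures, so the spread behind each p-value is that between these samples and may be technical.

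miRNAs are short RNAs cut from a hairpin precursor that guide a silencing complex to messenger RNAs, mainly through pairing of their seed, the bases near the 5′ end, and lower the level or the translation of those messages. miR-371 is transcribed from a cluster on chromosome 19 that is active in embryonic stem cells and placenta. EGFR drives division of PC9 cells through the MAPK pathway, and blocking its kinase takes these cells out of the cell cycle, with loss of the messages for DNA replication and mitosis. Both arms of the hairpin are shown because either could act in cells that carry the precursor. The hairpin lies on the plus strand of chromosome 19 at chr19:53787675-53787741 (GRCh38.p14), with the 5p arm at chr19:53787680-53787699 and the 3p arm at chr19:53787716-53787738. The sequences are those of RefSeq, and capitals mark the seed, bases 2 to 8.
miR-371a-3p: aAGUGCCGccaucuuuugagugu
miR-371a-5p: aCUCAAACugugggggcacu
The seeds of the 2 arms differ, and the mature miRNAs themselves were not analysed here.

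The expression values are on the log2 scale as the authors deposited them, and a difference of 1 between 2 arrays is a doubling of the signal. In each of the 4 groups the arrays correlated at a mean r between 0.9964 and 0.9973, and the median SD of a gene over 3 arrays in erlotinib was 0.0920 in GFP vector and 0.0903 in pre-miR-371 cells on the log2 scale. The 10 markers of epithelial carcinoma cells were all above a log2 value of 6, and in erlotinib their mean per array was 11.84 to 11.88 in GFP vector and 11.83 to 11.87 in pre-miR-371 cells. Among markers of other cells, 1 of 10 for fibroblasts (COL1A1), 0 of 8 for leukocytes and 1 of 10 for endothelium (PECAM1) had a mean of at least 6. The mean level per array of the fibroblast markers was 3.89 to 3.92 in GFP vector and 3.93 to 3.98 in pre-miR-371 cells, a small step with no overlap and near background, whose part in the results was not tested. The ranges of the lines overlapped for leukocyte (4.12 to 4.19 and 4.14 to 4.23) and endothelial markers (4.44 to 4.52 and 4.43 to 4.49). EGFR, the target of the drug, had log2 values of 10.48, 10.42 and 10.34 in GFP vector and 10.51, 10.53 and 10.43 in pre-miR-371 cells, and did not pass the test (log2 fold change 0.07, adjusted p = 0.416).

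In erlotinib, 245 genes (1.24% of those tested) differed between the lines by more than 1.5-fold with a Benjamini-Hochberg adjusted p under 0.05, and such genes are named as called below. Of these, 136 (0.688%) were higher and 109 (0.551%) lower in pre-miR-371 cells. The differences were small in most of them. The median fold was 1.61 among the higher and 1.63 among the lower genes, and 12 in each direction exceeded a fold of 2. By the adjusted p alone, which is what "passed" means below, 1286 genes (6.50%) were higher and 1870 (9.46%) lower, with median folds of 1.28 and 1.25. The 3 arrays of one line lay wholly above or below those of the other for 2943 genes higher (14.9%) and 4184 lower (21.2%) in pre-miR-371 cells. All 136 called higher and 107 of the 109 called lower were among them. With quantile normalization repeated on the deposited values, 186 genes were called higher and 93 lower, so the split between the directions depended on the scaling, although the median log2 fold change of all genes was near 0 in both (-0.01 as deposited and 0.0009 after the second normalization). With a gene's probe sets averaged in place of the brightest one, 145 genes were called.

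Named first are called genes whose arrays did not overlap between the lines and whose brighter line reached a mean log2 value of 6. Lack of overlap was thus a condition of this choice and adds no support. The largest rises were those of AOC1, GBP1, ATP6V1C2 and SLC2A3, and dimmer genes are given further on. AOC1, diamine oxidase, which degrades histamine and putrescine, read 4.03, 3.93 and 3.99 in GFP vector and 6.66, 6.39 and 6.80 in pre-miR-371 cells on the log2 scale. Its GFP vector arrays were near background and all pre-miR-371 arrays lay far above them, a log2 fold change of 2.64 with a standard error of 0.11 (adjusted p = 5.64e-07). GBP1, an interferon-induced GTPase, had log2 values of 7.28, 7.22 and 7.43 against 8.46, 8.62 and 8.78, a log2 fold change of 1.31 with a standard error of 0.11 (adjusted p = 8.07e-05). ATP6V1C2, a subunit of the proton pump of vacuoles and cell membranes, read 6.00, 5.74 and 5.85 against 7.23, 7.16 and 7.03. The rise was 1.28 (adjusted p = 6.68e-05). SLC2A3, the glucose transporter GLUT3, which has a near-identical relative that its probe set may also bind, had log2 values of 6.88, 6.84 and 6.89 against 7.94, 7.95 and 8.20 (log2 fold change 1.17, adjusted p = 2.62e-05).
NOG, or noggin, which binds and blocks bone morphogenetic proteins, read 5.32, 5.01 and 4.90 in GFP vector and 6.16, 6.01 and 6.30 in pre-miR-371 cells. In DMSO the same gene stood at 9.71, 9.90 and 9.86 and at 9.83, 10.00 and 9.99. The erlotinib arrays were thus far below the DMSO arrays in both lines, and the lines parted only in erlotinib (log2 fold change 1.08, adjusted p = 0.000172, against 0.12, adjusted p = 0.545, in DMSO; adjusted p of the difference 0.00993). The GFP vector erlotinib arrays of NOG were near background, so the size of this gap is uncertain. IGFBP5, a binding protein of insulin-like growth factors, went the other way with the drug, from 3.00, 3.45 and 3.01 in DMSO to 8.80, 8.70 and 8.62 in erlotinib in GFP vector cells and from 4.47, 4.49 and 4.25 to 9.70, 9.74 and 9.74 in pre-miR-371 cells. Its line difference in erlotinib was 1.02 (adjusted p = 0.000252) on the chosen probe set, while a dimmer probe set gave -0.08 (adjusted p = 0.743).
Carbonic anhydrase CA2 (log2 fold change 1.08), the WNT feedback inhibitor AXIN2 (0.98) and the collagen chain COL6A3 (0.93) also rose, as did the transmembrane protein gene TMEM255A (0.94). A second probe set of AXIN2 did not pass (0.22, adjusted p = 0.164).

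**Figure D1:**
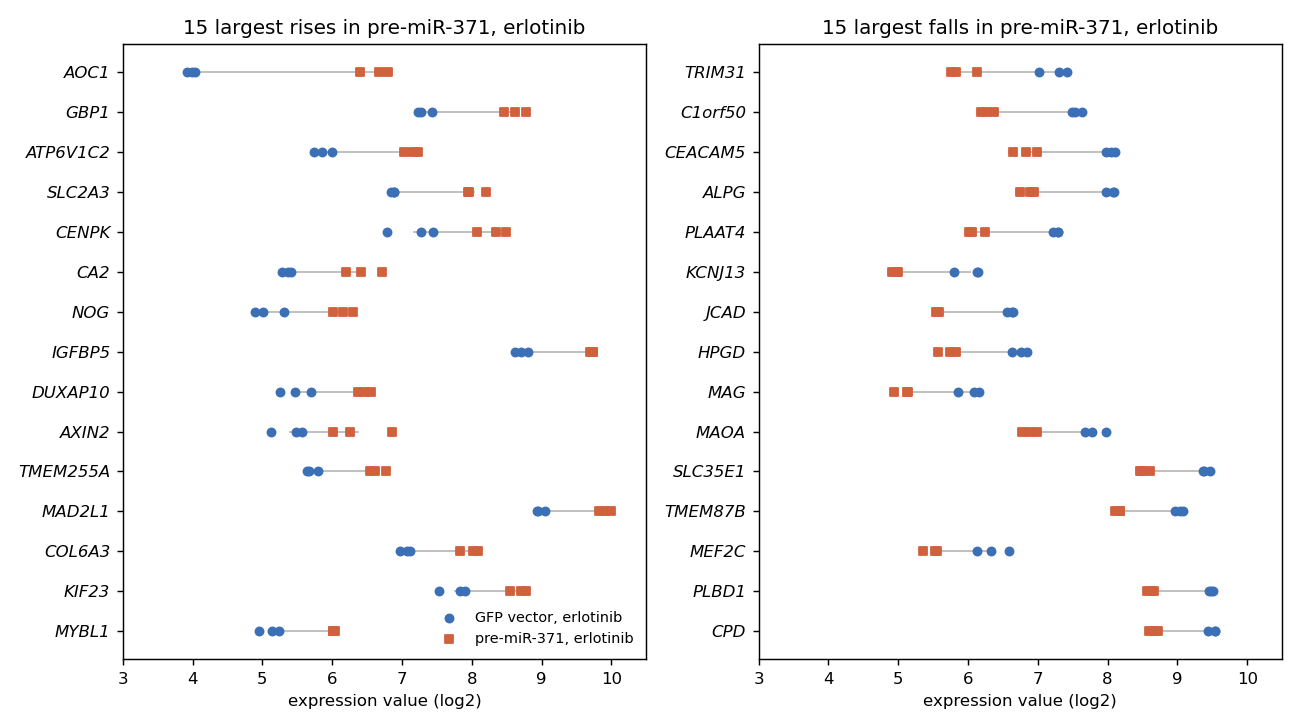
Log2 expression values of the 15 genes with the largest rises (left) and the 15 with the largest falls (right) among called genes whose arrays did not overlap and whose brighter line had a mean log2 value that reached 6. Each circle is 1 of 3 GFP vector arrays and each square 1 of 3 pre-miR-371 arrays in erlotinib, the grey line joins the group means, and AOC1 shows the widest gap, from about 3.98 to 6.62.

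Among genes chosen in the same way, the steepest falls were those of a ubiquitin ligase, a gene of unknown role and proteins of the epithelial surface. TRIM31, the ubiquitin ligase, had log2 values of 7.02, 7.42 and 7.30 in GFP vector and 6.12, 5.83 and 5.75 in pre-miR-371 cells (log2 fold change -1.35, standard error 0.21, adjusted p = 0.0017), and a second probe set gave -1.16 (adjusted p = 0.00133). C1orf50, whose function is not well known, read 7.64, 7.53 and 7.49 against 6.26, 6.19 and 6.37 (log2 fold change -1.28, adjusted p = 1.88e-05). CEACAM5, the carcinoembryonic antigen of epithelial surfaces, read 8.10, 8.05 and 7.98 against 6.83, 6.98 and 6.65 (log2 fold change -1.22, adjusted p = 3.37e-05). A dim second probe set of CEACAM5 showed no such fall (-0.03, adjusted p = 0.899). ALPG, an alkaline phosphatase of germ cells and placenta with near-identical relatives, had log2 values of 8.10, 8.08 and 7.98 against 6.94, 6.89 and 6.74 (log2 fold change -1.20, adjusted p = 4.04e-05). A dim second probe set of ALPG gave -0.20 (adjusted p = 0.532). PLAAT4, a retinoid-induced phospholipase and acyltransferase, read 7.21, 7.29 and 7.29 against 6.01, 6.05 and 6.24 (log2 fold change -1.16, adjusted p = 0.00083).
Further down the order were the potassium channel gene KCNJ13 (log2 fold change -1.06), the endothelial junction protein gene JCAD (-1.04), monoamine oxidase MAOA (-0.93), the transcription factor MEF2C (-0.86), the phospholipase B-like PLBD1 (-0.86) and carboxypeptidase CPD (-0.85). SLC35E1, a solute carrier, read 9.47, 9.39 and 9.37 against 8.46, 8.60 and 8.50 (-0.89, adjusted p = 2.62e-05), and TMEM87B, a membrane protein of the Golgi apparatus, 9.04, 9.08 and 8.96 against 8.18, 8.18 and 8.11 (-0.87, adjusted p = 2.62e-05). Second probe sets of SLC35E1 (-1.22), CPD (-1.02), TMEM87B (-0.55) and MAOA (-0.51) also passed as lower.

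Among the 86 genes called higher that had a further probe set, the brightest of the others lay on the same side in 71 and passed there in 33, and among 60 called lower in 50 and 27. Where that probe set's mean log2 value reached 6, it lay on the same side in 29 of 30 higher and 19 of 20 lower genes. Dimmer second probe sets that did not pass were also found for BRIP1, BUB1, CCND1, CCNE2, CDK2, HLA-E, HLA-G, IFIT2, JCAD, KCNJ13, KIF23, KRT4, LOXL4, STX7, VAMP4 and WEE1. A single gene, SEC24D, passed the other way, and its own call was lost without GFP vector erlotinib replicate 1 or pre-miR-371 erlotinib replicate 3 (adjusted p = 0.0524 and 0.0616). For 37 of the higher and 29 of the lower genes the mean was under 6 even in the brighter line, and the size of such differences is uncertain. The largest of these were ZPLD1, a zona pellucida domain gene, with means of 2.87 and 5.85 (log2 fold change 2.99, against -0.20 on a second probe set near background, adjusted p = 0.218), the chemokine gene CXCL11 with 3.38 and 4.54 (1.16) and the cytochrome gene CYP4Z1 with 4.29 and 5.41 (1.12). Falls of this kind were those of CST1, a cystatin with close relatives, from 5.74 in GFP vector to 4.59 in pre-miR-371 cells (-1.14), and of the monooxygenase gene FMO5, from 5.70 to 4.60 (-1.10).

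Genes of cell division stood out by their number. Of 30 genes of mitosis, 29 passed as higher in pre-miR-371 cells in erlotinib, 6 of them called, and none passed as lower. The median log2 fold change of the list was 0.52, with members between 0.22 and 0.93, against -0.01 over all genes. PLK1, the member that did not pass, was at 0.22 (adjusted p = 0.126) and reached 0.31 (adjusted p = 0.0445) once pre-miR-371 erlotinib replicate 1 was left out. MAD2L1, which holds cells in metaphase until the spindle is attached, read 9.04, 8.93 and 8.95 in GFP vector and 9.82, 9.90 and 10.00 in pre-miR-371 cells, and KIF23, a motor of cytokinesis, 7.83, 7.53 and 7.91 against 8.54, 8.71 and 8.78. Their log2 fold changes were 0.93 (standard error 0.09, adjusted p = 0.000131) and 0.92 (standard error 0.11, adjusted p = 0.000295). A second bright probe set of MAD2L1 gave a smaller rise of 0.43 (adjusted p = 0.0012). TOP2A, the topoisomerase that untangles sister chromosomes, rose by 0.75, the centrosome kinase NEK2 by 0.74, the kinetochore subunits NUF2 and NDC80 by 0.62 and 0.60, the motor KIF11 by 0.58, the checkpoint kinase BUB1 by 0.57 and the cyclin-dependent kinase CDK1 by 0.57. CCNA2, cyclin A2, had log2 values of 9.30, 9.28 and 9.26 against 9.81, 9.82 and 9.82. The gap between its lines was many times the spread within either (log2 fold change 0.54, standard error 0.05, adjusted p = 0.000124). CENPK, a kinetochore gene that stands in no list, was among the largest rises of all, at 7.45, 6.79 and 7.28 against 8.08, 8.34 and 8.49 (log2 fold change 1.13, adjusted p = 0.00112). In bulk RNA a larger share of dividing cells and more of these messages per dividing cell cannot be told apart.

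Of 37 genes of DNA replication, 29 passed as higher, 4 of them called, and none as lower, with a median log2 fold change of 0.37. CDC6, the loader of the replicative helicase, had log2 values of 6.79, 6.64 and 6.61 in GFP vector and 7.39, 7.33 and 7.37 in pre-miR-371 cells (log2 fold change 0.68, standard error 0.06, adjusted p = 9.33e-05). PCNA, the sliding clamp of the polymerases, read 10.94, 10.96 and 10.86 against 11.46, 11.54 and 11.58 (0.61, adjusted p = 0.000106). MCM6, a subunit of the helicase itself, read 9.87, 9.74 and 9.81 against 10.29, 10.37 and 10.40 (0.54, adjusted p = 0.000328). In each of the 3 genes the lines were apart on every array. MCM10 rose by 0.67, the primase subunit PRIM2 by 0.63, the polymerase subunit POLE2 by 0.56 and the helicase factors CDC45 and GINS4 by 0.53 each. RRM2, a subunit of ribonucleotide reductase, was at -0.02 on the chosen probe set and at 0.15 (adjusted p = 0.045) with the mean of its probe sets. Other helicase subunits moved less, with MCM2 at 0.40, MCM3 at 0.34 and MCM5 at 0.31, all passed, and MCM7 at 0.15 and MCM4 at 0.14, which did not pass.
Of 22 genes of DNA repair and the S phase checkpoint, 18 passed as higher and none as lower (median log2 fold change 0.43). The checkpoint kinase CHEK1 rose by 0.74. The BRCA1 partners BRIP1 and BARD1 rose by 0.51 each, as did BRCA1 itself, FANCI of the Fanconi anaemia pathway by 0.58 and the mitotic brake WEE1 by 0.53.

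Of 19 transcription factors and cofactors of the E2F, MYB and RB families, which switch the genes above on and off, 11 passed as higher and none as lower (median log2 fold change 0.30). MYBL1, or A-MYB, read 5.24, 5.13 and 4.95 in GFP vector, near background, and 6.05, 6.02 and 6.01 in pre-miR-371 cells (log2 fold change 0.92, adjusted p = 0.000252). However, a second probe set of like brightness gave -0.03 (adjusted p = 0.906), and the mean of its probe sets did not pass (0.22, adjusted p = 0.0574). E2F7, a repressor of the family, rose by 0.79, with -0.01 on a dim second probe set (adjusted p = 0.948) and 0.39 with the mean of its probe sets. MYBL2 and FOXM1, which drive late cell cycle genes, rose by 0.52 each. The activators E2F1 and E2F2 were at 0.08 and 0.11 and did not pass. The count of 11 fell to 7 without GFP vector erlotinib replicate 2 or without pre-miR-371 erlotinib replicate 3, and to 5 with the mean of all probe sets.
Of 10 cyclins and kinases of the G1 phase, 5 passed as higher, among them cyclin D1 (CCND1, log2 fold change 0.44), cyclin E2 (CCNE2, 0.43) and CDK2 (0.30). Of 7 inhibitors of these kinases, CDKN3 (0.38) and CDKN1B, or p27 (0.39), passed as higher and CDKN1A, or p21 (-0.28), as lower. CDKN1A no longer passed without GFP vector erlotinib replicate 2 or 3 or pre-miR-371 erlotinib replicate 2 or 3 (adjusted p between 0.0511 and 0.0676). The output genes of the MAPK pathway, which erlotinib shuts off, were divided, with 7 of 31 passed as higher and 3 as lower and a median log2 fold change of 0.04. The 7 became 4 without GFP vector erlotinib replicate 3, 3 without pre-miR-371 erlotinib replicate 3 and 2 with the mean of all probe sets. CCND1 was among the higher ones, and the lower ones were the early response gene IER3 (-0.49), the receptor gene EPHA4 (-0.39) and the oncogene MYC (-0.35).

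**Figure D2:**
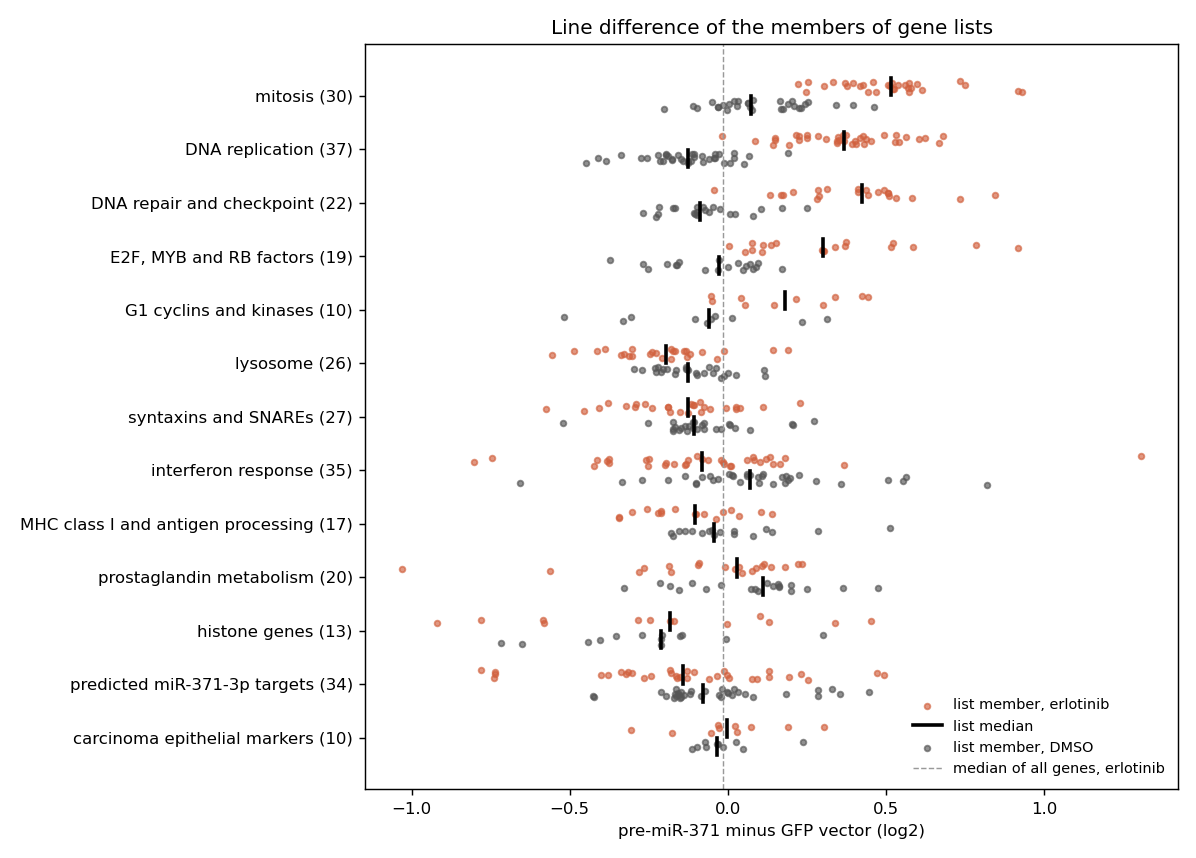
Log2 fold change of pre-miR-371 against GFP vector cells for the members of 13 gene lists, with the number of measured members in brackets. Each point is 1 gene, in erlotinib (upper row of a list) or DMSO (lower row), the black bars are the list medians and the dashed line is the median of all genes in erlotinib; the 30 genes of mitosis lie between 0.22 and 0.93 in erlotinib around a median of 0.52, and around 0.07 in DMSO.

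The promoters of 4 of these genes are printed because they hold, near the start of transcription, a short motif that recurs in their list. E2F factors bind a GC-rich site after a run of T, searched here as TTTCGCGC, TTTGGCGC and TTTCCCGC, and the cell cycle homology region, CHR, searched as TTTGAA, is bound by the MuvB complex of late cell cycle genes. Each sequence runs 5′ to 3′ on the strand of the gene, from 250 bases before the RefSeq start to 50 after it, in the build GRCh38.p14. CDC6 is at chr17:40287629-40287928 on the plus strand, MCM6 at chr2:135876394-135876693 on the minus strand, KIF23 at chr15:69414099-69414398 on the plus strand and MAD2L1 at chr4:120066799-120067098 on the minus strand. Capitals mark E2F matches on either strand in CDC6 and MCM6 and the CHR match in KIF23 and MAD2L1.
CDC6: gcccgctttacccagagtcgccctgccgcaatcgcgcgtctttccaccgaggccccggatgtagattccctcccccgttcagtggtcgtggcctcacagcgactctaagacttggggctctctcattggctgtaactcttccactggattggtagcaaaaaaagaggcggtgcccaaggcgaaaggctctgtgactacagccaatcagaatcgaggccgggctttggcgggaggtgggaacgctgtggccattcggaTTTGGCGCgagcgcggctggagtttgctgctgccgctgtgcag
MCM6: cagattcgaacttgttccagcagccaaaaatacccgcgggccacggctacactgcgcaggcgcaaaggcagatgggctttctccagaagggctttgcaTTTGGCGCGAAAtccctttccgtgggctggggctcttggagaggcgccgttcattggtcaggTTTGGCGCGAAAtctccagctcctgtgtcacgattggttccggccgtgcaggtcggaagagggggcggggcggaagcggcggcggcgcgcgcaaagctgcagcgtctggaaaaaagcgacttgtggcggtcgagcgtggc
KIF23: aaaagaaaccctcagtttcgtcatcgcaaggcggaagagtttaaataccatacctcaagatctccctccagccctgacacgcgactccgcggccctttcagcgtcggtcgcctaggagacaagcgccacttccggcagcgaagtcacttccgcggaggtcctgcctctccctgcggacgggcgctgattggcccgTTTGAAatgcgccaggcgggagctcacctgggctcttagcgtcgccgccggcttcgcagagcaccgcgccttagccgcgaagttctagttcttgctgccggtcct
MAD2L1: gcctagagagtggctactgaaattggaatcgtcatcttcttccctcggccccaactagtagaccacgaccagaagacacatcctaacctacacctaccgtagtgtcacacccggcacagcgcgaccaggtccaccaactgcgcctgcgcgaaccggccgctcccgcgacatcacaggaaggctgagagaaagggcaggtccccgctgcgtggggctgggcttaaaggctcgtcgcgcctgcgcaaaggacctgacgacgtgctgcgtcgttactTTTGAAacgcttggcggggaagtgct
In CDC6 the match lies 7 bases after the start. The capitals of MCM6 hold 4 overlapping matches, 2 on each strand, in a pair of copies that begin 152 and 90 bases before the start. The CHR match lies 55 bases before the start in KIF23 and 24 after it in MAD2L1.

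Of 34 genes of DNA replication with a promoter in the RefSeq table, 19 held an E2F match (55.9%), against 564 of 15384 promoters of all genes (3.67%). The CHR motif was in 17 of 26 promoters of mitosis genes (65.4%), 1 of 34 of DNA replication genes (2.94%) and 11.9% of all. CCAAT, the site of the factor NF-Y, was in 76.9% of the mitosis, 58.8% of the replication and 68.4% of the repair promoters, and in 36.1% of all. These shares describe the lists, whose genes are known for such sites, and do not rest on the array values. Among the genes chosen by the arrays alone, 6 of 108 promoters of genes called higher (5.56%) and 0 of 81 of genes called lower held an E2F match, 26 (24.1%) and 12 (14.8%) a CHR match, and 55 (50.9%) and 26 (32.1%) a CCAAT. The other motifs were searched on both strands too. Among genes called higher, called lower and all genes, the AP-1 motif (TGAGTCA or TGACTCA) was found in 3.70%, 2.47% and 3.74%, the cyclic AMP element (TGACGTCA) in 3.70%, 3.70% and 2.67%, the GC box (GGGGCGGGG) in 19.4%, 19.8% and 22.6%, the interferon-stimulated response element in 3.70%, 4.94% and 2.94% and the antioxidant element (TGACNNNGC) in 17.6%, 13.6% and 14.8%. A match is a run of letters and not a measured binding site, and some motifs overlap one another.

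**Figure D3:**
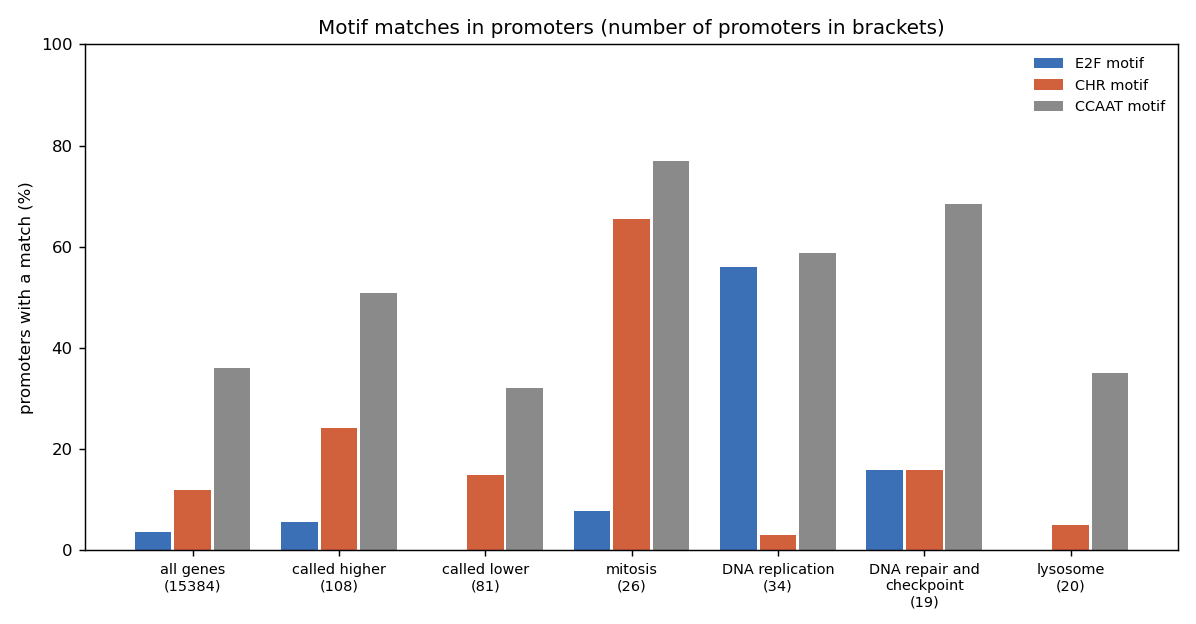
Share of promoters (%, 250 bases before to 50 after the RefSeq start) with at least 1 match to the E2F, CHR or CCAAT motif on either strand, for all genes, the genes called higher or lower in erlotinib and 4 gene lists, with the number of promoters in brackets. E2F matches stand at 55.9% in DNA replication genes and CHR matches at 65.4% in mitosis genes, against 3.67% and 11.9% of all promoters.

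Genes of the lysosome leaned the other way. Of 26, 11 passed as lower in pre-miR-371 cells in erlotinib (42.3%, against 9.46% of all genes) and none as higher. The median log2 fold change was -0.19, with 24 of 26 below 0. None was past a fold of 1.5. CTSH, the protease cathepsin H, had log2 values of 12.34, 12.19 and 12.28 in GFP vector and 11.78, 11.85 and 11.70 in pre-miR-371 cells (log2 fold change -0.49, adjusted p = 0.000414), and NEU1, the sialidase, 9.00, 8.96 and 8.83 against 8.38, 8.45 and 8.29 (-0.56, adjusted p = 0.000532). Both were lower on every pre-miR-371 array. TPP1 (-0.34), CTSA (-0.33), CTSB (-0.30) and NPC1, the cholesterol exporter of the lysosome (-0.30), passed too. HEXA, a hexosaminidase subunit, passed on the chosen probe set (-0.41) and not with the mean of its probe sets (-0.08, adjusted p = 0.374). TFEB, a regulator of lysosome genes, did not pass (0.19). The count was 19 when the fit was limited to genes whose mean log2 value reached 6.
Syntaxins and other SNARE proteins fuse vesicles with their target membranes. Of 27 members, 7 passed as lower (25.9%, against 9.46% of all genes) and none as higher (median log2 fold change -0.12). Among them were VAMP4 of the Golgi apparatus (-0.57) and the endosomal syntaxins STX7 (-0.41) and STX12 (-0.32). A second probe set of VAMP4 gave 0.08 (adjusted p = 0.702), that of STX7 -0.22 (adjusted p = 0.102) and that of STX12 -0.35 (adjusted p = 0.0171), so that STX12 alone of the 3 passed on both. The count was 4 without pre-miR-371 erlotinib replicate 3 and 3 with the mean of all probe sets. These smaller counts are near the share of all genes.

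Interferon response genes did not move as a block (median log2 fold change -0.08). Of 35, 7 passed as lower, a count of 3 without GFP vector erlotinib replicate 1 or 2 and of 4 without GFP vector erlotinib replicate 3 or pre-miR-371 erlotinib replicate 1 or 3, where 9.46% of all genes passed as lower. The smaller counts are near that share. GBP1, given above, was the member with a rise. IFIT2, which binds foreign RNA, read 7.17, 7.05 and 7.04 in GFP vector and 6.34, 6.29 and 6.21 in pre-miR-371 cells (log2 fold change -0.80, adjusted p = 0.000232), and SAMD9, an antiviral protein, 6.80, 6.74 and 6.74 against 6.02, 6.01 and 6.00 (-0.75, adjusted p = 0.000497). The lines did not overlap in either gene. The antiviral synthetase OAS2 did not pass (0.16). Among 17 genes of MHC class I and antigen processing, 5 passed as lower and none as higher (median -0.10). Among these were the immunoproteasome subunits PSMB8 and PSMB10 (-0.34 each), HLA-G (-0.30) and HLA-E (-0.25), while the light chain B2M was at 0.01.
TNFSF10, the death ligand TRAIL, had log2 values of 11.06, 11.04 and 10.98 against 10.13, 10.31 and 10.28 in erlotinib, with values between 2.98 and 3.45 in both lines in DMSO. All erlotinib arrays were bright, and those of pre-miR-371 cells were lower (log2 fold change -0.79, adjusted p = 0.00155). Among 15 death receptors and ligands, 3 passed as lower and none as higher, and TNFRSF1A, a receptor of tumour necrosis factor (-0.41), was another of these.

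Of 20 genes of prostaglandin metabolism, 5 passed as lower and none as higher, although the median log2 fold change was 0.03. The count was 3 with the mean of all probe sets and without any 1 of GFP vector DMSO replicate 2, pre-miR-371 DMSO replicate 2, the GFP vector erlotinib arrays and pre-miR-371 erlotinib replicates 2 and 3. This smaller count is near the share of all genes. HPGD, the dehydrogenase that inactivates prostaglandins, read 6.84, 6.76 and 6.63 in GFP vector and 5.57, 5.83 and 5.74 in pre-miR-371 cells (log2 fold change -1.03, adjusted p = 0.000213). PTGES, which makes prostaglandin E2, read 10.17, 10.19 and 10.17 against 9.63, 9.59 and 9.62 (-0.56, adjusted p = 9.3e-05). In PTGES every array of GFP vector cells was above every array of pre-miR-371 cells. A second, dimmer probe set of HPGD gave -1.04 (adjusted p = 0.00235).
The counts of the next lists stand beside 9.46% of all genes passed as lower and 6.50% as higher. Of 13 histone genes, 5 passed as lower and 2 as higher. Among the lower ones were H2AC8 (-0.92, near background), H2BC21 (-0.78), H2AC6 (-0.58) and H2BC12 (-0.25), replication-type histones of clusters whose members are alike enough for a probe set to bind several. The variant H2AZ1 was higher (0.45). Of 24 lung epithelial genes, 7 passed as lower, and 4 without GFP vector erlotinib replicate 1 or 2 or pre-miR-371 erlotinib replicate 3. FOXA1, an airway transcription factor (-0.41), and CEACAM6 (-0.39) were lower next to CEACAM5, and the club cell secretoglobin SCGB1A1 (0.42) was higher. Of 13 keratins, KRT16 (-0.51), KRT4 (-0.44) and KRT13 (-0.40) passed as lower. The collagen crosslinker LOXL4 was lower at -0.74. Of the 34 measured genes that the study lists as predicted targets of miR-371-3p, 11 passed as lower, with a median log2 fold change of -0.14. As higher passed 2, and 1 without any single array other than GFP vector DMSO replicates 1 and 2. The sheet that holds the list also marks genes by their array result, so it is no independent evidence of its direction. Among STX12, PRDX6, PRKCA and PLCB4 only, STX12 differed most clearly between the lines, while other listed targets such as LOXL4 differed more. STX12 read 8.67, 8.60 and 8.62 in GFP vector and 8.27, 8.33 and 8.33 in pre-miR-371 cells in erlotinib (log2 fold change -0.32, adjusted p = 0.00565), with no overlap. PRDX6, a peroxiredoxin that also has phospholipase A2 activity, had log2 values of 12.48, 12.44 and 12.44 in GFP vector and 12.31, 12.32 and 12.24 in pre-miR-371 cells in erlotinib, and 12.54, 12.49 and 12.51 against 12.41, 12.39 and 12.38 in DMSO. It was lower on every pre-miR-371 array of either treatment, by a small amount. The log2 fold change was -0.16 in erlotinib (adjusted p = 0.041) and -0.12 in DMSO (adjusted p = 0.177). In erlotinib the test was passed without GFP vector DMSO replicate 1 or 3 and not without any other single array (adjusted p between 0.0563 and 0.131). PRDX6 also did not pass with only the 6 erlotinib arrays (adjusted p = 0.105) or with arrays centred on their medians (0.0926). Nor did it by the methods' t-test after Benjamini-Hochberg (0.0537) or on a second bright probe set (-0.20, adjusted p = 0.056). PRKCA, protein kinase C alpha, read 8.43, 8.30 and 8.32 against 8.11, 8.12 and 8.14 in erlotinib, with no overlap (-0.22, adjusted p = 0.118). It passed when GFP vector DMSO replicate 1 was left out (adjusted p = 0.0141), with genes limited to a mean of at least 6 (0.0486), with trend and robust variance (0.0351) and with array weights (0.0481), while the mean of its probe sets gave 0.03. PLCB4, a phospholipase C, did not pass (0.25, adjusted p = 0.21), and its arrays overlapped.
Lists with few passed members included the respiratory chain (0 higher and 2 lower of 22) and autophagy (0 and 2 of 25). Ribosome biogenesis (1 and 1 of 19) and the microRNA machinery (1 and 0 of 16) were others. Heat shock chaperones had 3 of 14 passed as higher (21.4%, against 6.50% of all genes) and 0 as lower, with a median log2 fold change of 0.08. Each list stayed within 2 of these counts whichever array was left out.

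The same comparison in DMSO took its means from the other 6 arrays, with the spread estimated over all 12 in both, and gave fewer calls. In DMSO 43 genes (0.217%) were called higher and 46 (0.233%) lower, 320 (1.62%) and 719 (3.64%) passed, and the arrays did not overlap for 2125 (10.7%) and 3492 (17.7%). Of the 136 genes called higher in erlotinib, 17 were also called higher in DMSO, 35 passed there as higher and none as lower. Of the 109 called lower, 18 were also called lower in DMSO, 44 passed as lower and none as higher. The sign was the same in both treatments for 120 of the 136 and 84 of the 109, where 49.6% of all genes lay above 0 in DMSO. The median log2 fold change of the 136 was 0.69 in erlotinib, the contrast that chose them, and 0.24 in DMSO, and that of the 109 was -0.71 and -0.27. In DMSO 78 of the 136 had all pre-miR-371 arrays above all GFP vector arrays and 2 the reverse, and 56 of the 109 had them all below and 3 the reverse.

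C1orf50 was the clearest case of a difference present in both treatments, at 7.61, 7.61 and 7.49 in GFP vector and 6.03, 6.23 and 5.97 in pre-miR-371 cells in DMSO, a log2 fold change of -1.49 (adjusted p = 8.42e-06) beside -1.28 in erlotinib. SLC35E1 was at -0.85 and -0.89 in DMSO and erlotinib, ATP6V1C2 at 1.42 and 1.28, CEACAM5 at -0.86 and -1.22, JCAD at -0.89 and -1.04 and PLBD1 at -0.72 and -0.86, each called in both. The interleukin-1 antagonist IL1RN (-0.80 and -0.63) was another. ZPLD1, near background, was at 2.72 and 2.99. IGFBP5 was called in both on its chosen probe set (1.25 and 1.02) and did not pass in DMSO with the mean of its probe sets (0.23, adjusted p = 0.119). The GFP vector DMSO arrays of IGFBP5 and ATP6V1C2 were near background too, so the size of their DMSO difference is uncertain. For none of these 9 genes did the difference between treatments pass the test, which does not show that the treatments were alike.

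The difference between the 2 line differences, erlotinib minus DMSO, passed for 284 genes in the positive (1.44%) and 111 in the negative direction (0.561%), and was called for 102 (0.516%) and 56 (0.283%). Of the 136 genes called higher in erlotinib, 48 passed in the positive direction and of the 109 called lower 28 in the negative, and none passed in the opposite one. Because the erlotinib contrast chose these genes, their differences tend to the same side and are read as a description. For 58 of the 136 and 38 of the 109 neither the DMSO comparison nor the difference passed, so that these cannot be placed in either kind.
AOC1 stood at 3.60, 3.82 and 3.47 in GFP vector and 4.18, 4.36 and 4.23 in pre-miR-371 cells in DMSO, near background on all arrays. Its log2 fold change was 0.63 there and 2.64 in erlotinib, a difference of 2.01 (standard error 0.15, adjusted p = 0.000556). The pre-miR-371 erlotinib arrays were thus the only group of the 4 in which the gene was bright. ALPG was at 4.60, 4.85 and 4.52 and at 5.07, 4.93 and 4.93 in DMSO, and the difference was -1.52 (adjusted p = 0.000652). HPGD was at 3.41, 3.14 and 3.17 and at 3.38, 3.38 and 3.72 in DMSO, and the difference was -1.28 (adjusted p = 0.00615). Both genes were near background in DMSO and bright in erlotinib in GFP vector cells, with smaller values in pre-miR-371 cells. PLAAT4 (-1.34, adjusted p = 0.0128), KCNJ13 (-1.41, adjusted p = 0.00615) and IFIT2 (-0.90, adjusted p = 0.0072) had the same course.
SGPP2, a phosphatase of sphingosine 1-phosphate, differed in the opposite arrangement on its chosen probe set. It read 7.47, 7.49 and 7.45 in GFP vector and 8.30, 8.29 and 8.21 in pre-miR-371 cells in DMSO, and 9.05, 9.02 and 8.99 against 8.88, 8.98 and 8.77 in erlotinib. The lines were apart in DMSO (log2 fold change 0.80) and not past the test in erlotinib (-0.14, adjusted p = 0.139), a difference of -0.94 (adjusted p = 0.00121). In erlotinib a second probe set of SGPP2 passed as higher (0.30, adjusted p = 0.0379), and the mean of its probe sets gave 0.05.

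**Figure D4:**
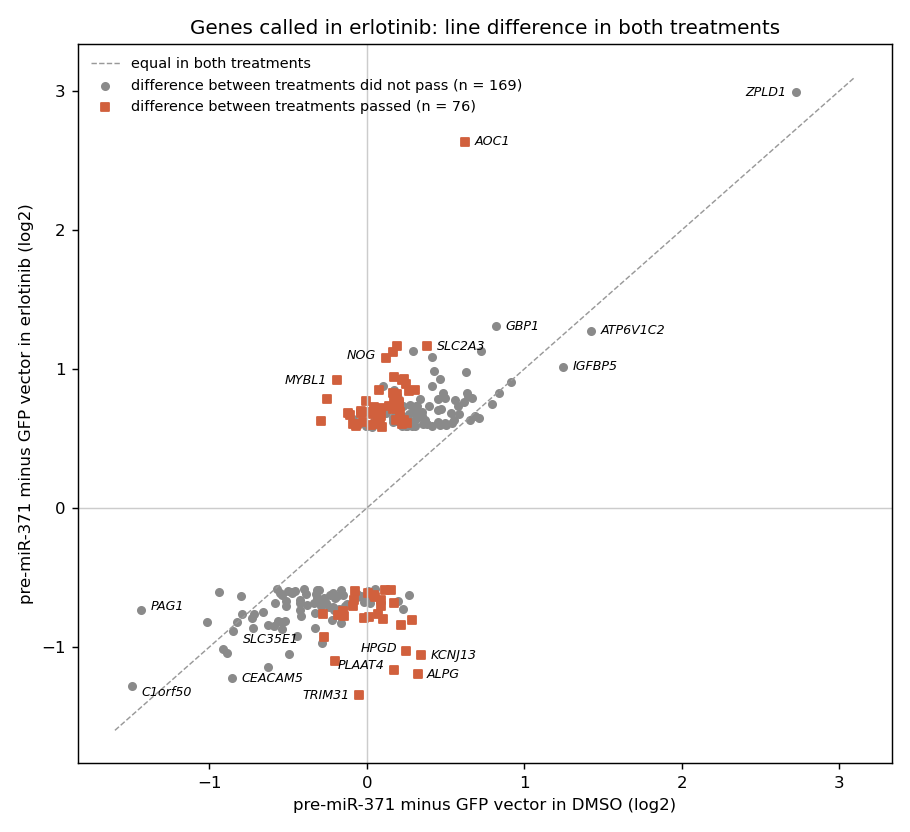
Log2 fold change of pre-miR-371 against GFP vector cells in DMSO (x axis) and in erlotinib (y axis) for the 245 genes called in erlotinib. Squares are the 76 genes whose difference between treatments passed the test, circles the other 169, and the dashed line marks equal values; C1orf50 (-1.49 and -1.28) lies near the line and ALPG (0.32 and -1.20) far from it.

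The cell division lists had medians closer to 0 in DMSO, with mitosis slightly above and DNA replication and repair slightly below. For mitosis the median log2 fold change was 0.07 there, with 6 of 30 members passed as higher and none as lower, and 1 to 3 without any 1 of the DMSO arrays, where 1.62% of all genes passed as higher. The difference between treatments passed for 14, all positive. That count was 7 to 9 without any 1 of the pre-miR-371 DMSO arrays, GFP vector erlotinib replicate 2 and pre-miR-371 erlotinib replicate 2, and 22 with quantile normalization repeated. For DNA replication it was -0.12, with 31 of 37 genes below 0, none passed as higher and 4 of 37 as lower (2 without pre-miR-371 DMSO replicate 2 or 3 and 7 without GFP vector DMSO replicate 3). The difference passed for 25, all positive, and for 16, 15 and 14 without GFP vector DMSO replicate 2, pre-miR-371 DMSO replicate 1 and pre-miR-371 DMSO replicate 2. For DNA repair and checkpoint genes it was -0.09, and the difference passed for 13 of 22, all positive. In DMSO CDC6 read 9.17, 9.12 and 9.13 in GFP vector and 9.07, 9.02 and 8.97 in pre-miR-371 cells, and MCM6 11.25, 11.22 and 11.22 against 11.13, 10.998 and 11.19. Both were a little lower on all pre-miR-371 arrays, a size that did not pass (log2 fold changes of -0.12 each, adjusted p = 0.266 and 0.262). The differences between treatments were 0.80 (adjusted p = 0.00415) and 0.67 (adjusted p = 0.00703). KIF23 read 9.22, 9.15 and 9.06 against 9.22, 9.38 and 9.50 in DMSO, and its difference of 0.69 (adjusted p = 0.0376) did not pass without any 1 array other than GFP vector DMSO replicate 3, pre-miR-371 DMSO replicate 3, GFP vector erlotinib replicate 3 or pre-miR-371 erlotinib replicate 1 (adjusted p between 0.0549 and 0.0937). MAD2L1 read 10.33, 10.32 and 10.25 against 10.55, 10.92 and 10.84 in DMSO (difference 0.47, adjusted p = 0.0917). It was higher in pre-miR-371 cells in DMSO as well (0.46, adjusted p = 0.0152), but did not pass without pre-miR-371 DMSO replicate 2 or 3 (adjusted p = 0.06 and 0.0682) or with the mean of its probe sets (0.07, adjusted p = 0.584).
All 4 genes were lower in erlotinib than in DMSO in both lines. With the DMSO arrays of its own line as the base, CDC6 changed by -2.45 on the log2 scale in GFP vector and -1.66 in pre-miR-371 cells, MCM6 by -1.42 and -0.75, KIF23 by -1.38 and -0.69 and MAD2L1 by -1.33 and -0.86. The list medians of this change were -0.90 and -0.40 for mitosis, -1.22 and -0.84 for DNA replication and -0.91 and -0.42 for repair. These values share their erlotinib arrays with the line comparison and are the same data seen from the other side. DDIAS, an antiapoptotic gene of DNA damage (0.67, adjusted p = 0.00502), TRIP13, which disassembles the spindle checkpoint complex (0.64, adjusted p = 0.00502), and BRIP1 (0.72, adjusted p = 0.00615) had differences between treatments among those with the smallest p. CCNE2 was lower in pre-miR-371 cells in DMSO (-0.52, adjusted p = 0.00812) and higher in erlotinib (0.43, adjusted p = 0.00721), a difference of 0.94 (adjusted p = 0.00624).

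**Figure D5:**
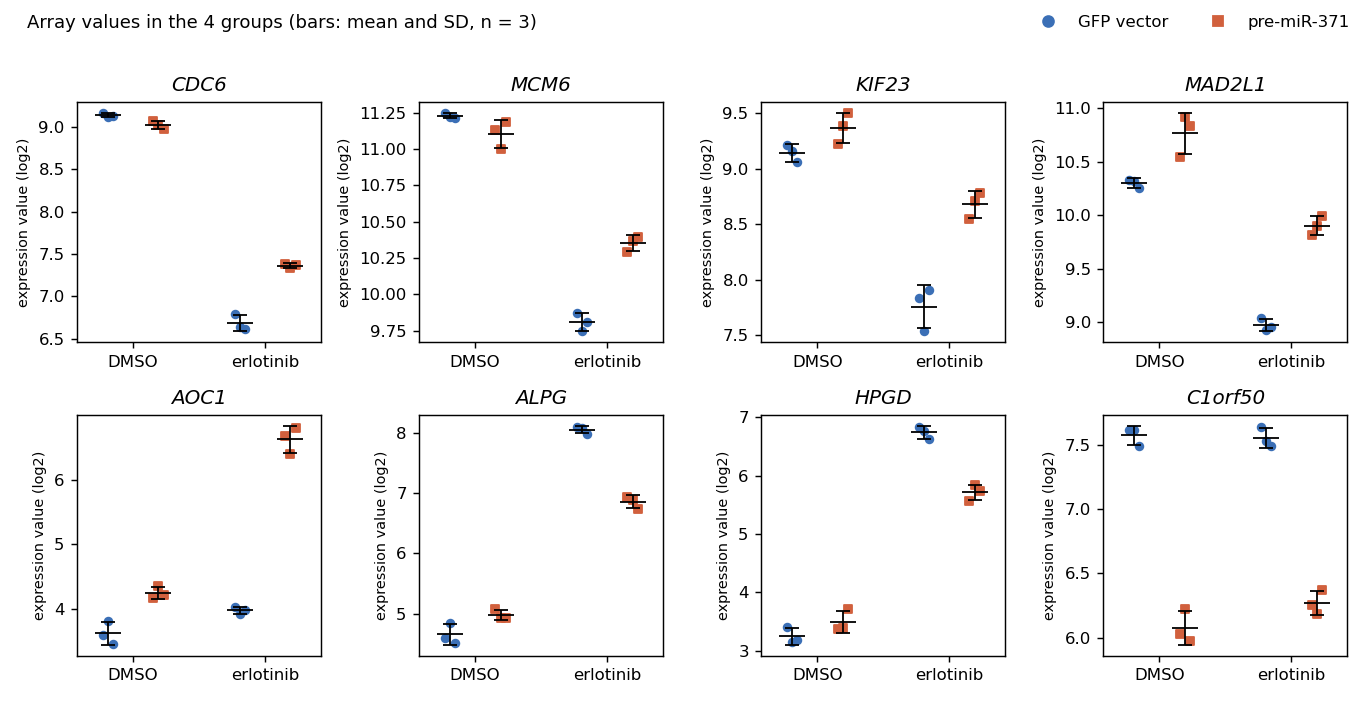
Log2 expression values of CDC6, MCM6, KIF23, MAD2L1, AOC1, ALPG, HPGD and C1orf50 in GFP vector (circles) and pre-miR-371 cells (squares) after DMSO or erlotinib, 1 point per array, with the mean and SD of 3 arrays and a vertical axis of its own in each panel. CDC6 falls from about 9.14 to 6.68 in GFP vector cells and from 9.02 to 7.36 in pre-miR-371 cells, and AOC1 is bright only in pre-miR-371 cells in erlotinib.

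In the lists of lysosome genes and of syntaxins and SNAREs, DMSO and erlotinib were closer. Not every list below 0 in erlotinib was so. The median was -0.08 in erlotinib and 0.07 in DMSO for interferon response genes, and -0.09 and 0.05 for lung epithelial genes. It was -0.10 and -0.04 for MHC class I and antigen processing, and -0.07 in both treatments for keratins. The median log2 fold change of the lysosome genes was -0.13 in DMSO beside -0.19 in erlotinib, and that of syntaxins and SNAREs -0.11 beside -0.12. In CTSH the DMSO values were 9.51, 9.49 and 9.47 in GFP vector and 9.45, 9.43 and 9.37 in pre-miR-371 cells, an order with no overlap but little room between the lines. Its difference between treatments was -0.41 (adjusted p = 0.0304), and no longer passed without any 1 array other than GFP vector DMSO replicate 1, GFP vector erlotinib replicate 2 or pre-miR-371 erlotinib replicate 2 (adjusted p between 0.0538 and 0.0821). The median of the histone genes was -0.21 in DMSO. Among them H2AC6 was at -0.65 (adjusted p = 0.000411) beside -0.58 in erlotinib, and H2BC21 at -0.14 (adjusted p = 0.203) beside -0.78, with a difference of -0.64 (adjusted p = 0.00742).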

How the data were processed

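The arrays held total RNA of 12 samples on genome-wide expression arrays of 54675 probe sets. The authors deposited log2 expression values made with RMA and the affy package per the submitters' processing notes, and the study's methods name quantile normalization, with versions not given in the sources used here. Since quantile scaling brings all arrays close to 1 distribution, a shift of most genes would be mostly hidden. The deposited arrays were not fully alike. In erlotinib their upper quartiles were 6.83 to 6.88 in GFP vector and 6.78 to 6.83 in pre-miR-371 cells. Repeating the quantile normalization changed the split of the calls, as given above. Of the probe sets, 41097 carried 1 gene symbol, 1801 several and 11777 none, and the 62 controls were left out. Symbols came from the platform annotation, updated through gene identifiers to a RefSeq table (GRCh38.p14) for 19735 of 19775 genes.

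Means of the 4 groups were fitted on all 12 arrays with lmFit and eBayes (limma 3.58.1, R 4.3.3), contrasts taken within each treatment and between them, and p-values adjusted by Benjamini-Hochberg over 19775 genes. The genes and lists were chosen with earlier results of these data known. The rule named the 15 largest rises and falls without overlap and with a mean of at least 6, the 5 largest below that limit, up to 4 genes per list by p, predicted targets that passed, the 8 smallest p for the difference between treatments and PRDX6, PLCB4, STX12 and PRKCA. Not every such gene is printed, and further list members were named after their values were seen. The fit was tested on simulated data for the erlotinib comparison, with 200 of 19775 genes changed. It called 2% at a log2 change of 0.3, 56% at 0.6, 96% at 1 and 100% at 2, and 2 unchanged genes. By the adjusted p alone 34% passed at 0.3 and 76% at 0.6, and unchanged genes that passed in this way were not counted. Far fewer genes were changed in the simulation than passed in the data, so it does not check the counts of passed genes. The number of arrays limits the precision. Alternatives covered the probe sets taken per gene, the filter, scaling, variance model, array weights, replicate number, test, call rule and each array left out. Figures were drawn in Python 3.11.15 with matplotlib 3.10.9.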

Additional observations from a re-analysis of the deposited data

Results flagged for a closer look

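For 34 of the genes named above, the line difference itself differed between erlotinib and DMSO by a test of that difference (limma, adjusted p under 0.05 and a fold over 1.5). Values are the log2 line difference in erlotinib minus that in DMSO, and positive ones mean a larger rise or a smaller fall of pre-miR-371 cells in erlotinib.

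Genes of cell division were positive: CCNE2 at 0.94, CDC6 at 0.80, CDC45 at 0.79, MCM10 at 0.77, POLE2 at 0.74, BRIP1 at 0.72, MCM6 at 0.67, DDIAS at 0.67, TRIP13 at 0.64, BARD1 at 0.60, and the factors E2F7 at 1.04 and FOXM1 at 0.59. MYBL1 was at 1.11 and did not pass with the mean of its probe sets (0.31, adjusted p = 0.155). Other positive genes were AOC1 at 2.01, CXCL11 at 0.97, NOG at 0.96, CYP4Z1 at 0.95, SLC2A3 at 0.78 and COL6A3 at 0.69.

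Negative genes were ALPG at -1.52, KCNJ13 at -1.41, PLAAT4 at -1.34, HPGD at -1.28, SGPP2 at -0.94, FMO5 at -0.90, IFIT2 at -0.90 and H2BC21 at -0.64. With the mean of their probe sets the difference did not pass for IFIT2 (-0.53, adjusted p = 0.109), nor for GINS4 (0.36, 0.122), LOXL4 (-0.30, 0.107), MAOA (-0.31, 0.107) and TNFSF10 (-0.31, 0.25), which are given next.

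In 7 genes single arrays decided the test. GINS4 (0.64) did not pass without pre-miR-371 DMSO replicate 1 or 2 (adjusted p = 0.0532 and 0.0526). LOXL4 (-0.59) did not pass without GFP vector DMSO replicate 2, pre-miR-371 DMSO replicate 2 or GFP vector erlotinib replicate 2 or 3 (0.0516 to 0.0578), and TMEM255A (0.77) without pre-miR-371 DMSO replicate 1 or 3, GFP vector erlotinib replicate 1 or 3 or pre-miR-371 erlotinib replicate 3 (0.0529 to 0.0618). KIF23 (0.69) is given above. MAOA (-0.66) passed only with all arrays or without GFP vector DMSO replicate 1 or GFP vector erlotinib replicate 1, and reached 0.111 otherwise. TNFSF10 (-0.80) passed only with all arrays or without GFP vector DMSO replicate 3 or pre-miR-371 DMSO replicate 1 or 3, and reached 0.084. TRIM31 (-1.30) passed only with all arrays or without GFP vector DMSO replicate 3 or pre-miR-371 DMSO replicate 2, and reached 0.113. With the replicate number as a block, KIF23, MAOA and TRIM31 did not pass either (adjusted p = 0.0527, 0.0837 and 0.082).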

How the results depend on the processing

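The counts of genes called in erlotinib depended most on the probe sets and the call rule. With the mean of all probe sets, 145 genes were called (75 higher, 70 lower), 16 of them also in DMSO, and 5 E2F list members passed. With every probe set tested, 400 were called (216 and 185, with 1 gene in both directions). Among genes with a mean of at least 6, 152 were called (58 lower), 20 also in DMSO, and 19 lysosome genes passed, as with trend and robust variance (19). By the methods' t-test after Benjamini-Hochberg, 161 were called (81 higher), and 18 replication and 5 E2F list members passed. Without a fold limit there were 3156 (1286 and 1870), 505 shared with DMSO and 395 differences between treatments, and past a fold of 2 there were 24 (12 and 12), 4 and 13. Array weights gave 269 differences. With 1 array left out, 216 to 307 genes were called, 127 to 169 higher and 89 to 138 lower, with 115 to 191 differences, 28 to 38 genes shared with DMSO and 7 to 11 E2F list members.

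Replicate numbers were not taken as pairs, since deviations of same-numbered erlotinib arrays correlated at 0.0403, -0.0023 and 0.1081. Between a DMSO and an erlotinib array of the same number the correlations ranged from -0.0568 to 0.1979, which concerns the difference between treatments. With the replicate block, 242 genes were called (135 higher and 107 lower), and of the named genes only KIF23, MAOA and TRIM31 changed side, in the difference between treatments (adjusted p = 0.0527, 0.0837 and 0.082).

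Of 2882 values of named genes in erlotinib under alternatives, 2832 kept their direction and side of the threshold and 38 no longer passed. A further 6 newly passed in the same direction, and 6 that had not passed moved across 0. Among the latter, RRM2 with the mean of its probe sets also newly passed (0.15, adjusted p = 0.045). The number of arrays limits small differences, and values under about 6 are close to background.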
